A study of Mus musculus with 18 samples.

Results

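Chromatin accessibility was described at 8 genes through which macrophages sense and export cholesterol. They are Nr1h3 and Nr1h2, which encode the liver X receptors LXRα and LXRβ, the exporters Abca1 and Abcg1, the lipoprotein gene Apoe, the nuclear receptor gene Pparg, the engulfment receptor gene Mertk and the ubiquitin ligase gene Mylip. A peak was a member when it overlapped one of these genes or the 25 kb on either side of it in the mm9 GENCODE annotation, a rule of position alone, while the 8 genes were chosen with earlier results of these data known. This gave 238 member peaks of the 194284 peaks of the series, and all 238 had enough counts to be tested, among 194230 tested peaks in all.

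Accessibility was measured by ATAC-seq, in which a transposase inserts adapters into open DNA, so that the reads over a region count how often it was cut. The cells were bone marrow-derived macrophages (BMDMs) of 3 Il10-/- mice on the C57BL/6J background, 12-week-old males by the study's methods, and every group lacks endogenous IL-10, so these data hold no wild-type reference. The 6 groups, with 3 libraries each, were unstimulated cells, cells given 500 nM (+)-JQ1 alone, cells given 10 ng/mL IL-10 alone, and the same 3 pretreatments followed by 50 ng/mL LPS. (+)-JQ1 blocks BET proteins, the readers of histone acetylation, and LPS, from the outer membrane of bacteria, activates macrophages through TLR4. Pretreatment lasted 12 h and LPS, or PBS in its place, the last 4 h of the 16 h culture. The labels number the replicates 1 to 3 in each group and give 3 mice, without saying that a number stands for 1 mouse.

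LXRs are nuclear receptors that bind oxidized cholesterol and, paired with a retinoid X receptor, raise transcription of genes for cholesterol export. ABCA1 and ABCG1 move cholesterol out of the cell to lipoprotein particles, apolipoprotein E carries it, and the product of Mylip (also called IDOL) marks the LDL receptor for degradation and so lowers cholesterol uptake. PPARγ, the product of Pparg, is a lipid-sensing nuclear receptor of macrophages, and MERTK binds dying cells for engulfment, which loads the macrophage with their cholesterol.

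The textbook LXR element is a direct repeat of AGGTCA with 4 bases between the copies, written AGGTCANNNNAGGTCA and called DR4. On both strands, this exact repeat lay in the central 300 bases of 0 of the 238 member peaks and of 0.019% of all peaks, and in 0 member peaks when the whole peak was searched. With the first A of each copy free (NGGTCANNNNNGGTCA), 0 member peaks matched in the central 300 bases, against 0.095% of all peaks, and 1 matched over its whole length. When any 1 other letter of that pattern was also free, a search added after the data were seen, the central 300 bases of 6 members (2.52%) and of 1.88% of all peaks held a match. A match is a run of letters and no evidence of binding. Over whole peaks, 28 members (11.8%) and 8.1% of all peaks held such a match. Selected whole-peak matches from the Abca1, Apoe and Abcg1 windows, not all of them, are shown here from the mm9 genome. They read 5′ to 3′ on the strand of the match, with the 16 matched bases in capitals and 45 bases on each side. None of these stretches overlaps an annotated exon.
Abca1 promoter (peak 6), chr4:53172774-53172879, plus strand: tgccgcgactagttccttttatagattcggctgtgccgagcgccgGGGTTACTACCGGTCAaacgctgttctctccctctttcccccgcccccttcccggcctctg
Abca1 gene body (peak 15), chr4:53128817-53128922, plus strand: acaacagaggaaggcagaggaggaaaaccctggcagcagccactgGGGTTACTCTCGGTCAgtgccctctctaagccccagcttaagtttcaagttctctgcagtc
Apoe downstream (peak 8), chr7:20278823-20278928, minus strand: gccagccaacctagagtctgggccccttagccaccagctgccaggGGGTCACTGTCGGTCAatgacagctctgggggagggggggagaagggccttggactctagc
Abcg1 intron close to the start (peak 9), chr17:31195781-31195886, minus strand: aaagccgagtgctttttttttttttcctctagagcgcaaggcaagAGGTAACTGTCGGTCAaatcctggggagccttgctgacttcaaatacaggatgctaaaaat
Abcg1 intron (peak 16), chr17:31210385-31210490, plus strand: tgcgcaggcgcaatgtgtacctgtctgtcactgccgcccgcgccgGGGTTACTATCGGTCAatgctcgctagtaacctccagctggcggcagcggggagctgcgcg
Abcg1 intron further in (peak 16), chr17:31212605-31212710, plus strand: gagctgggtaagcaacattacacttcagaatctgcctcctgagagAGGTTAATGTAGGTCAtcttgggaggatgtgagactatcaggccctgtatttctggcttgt

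The match at the Abca1 promoter is centred 60 bases before the start of the gene's annotation, and the Apoe downstream match lies 5.6 kb from the Apoe start, between Apoe and its neighbour Apoc1. It was the 1 whole-peak match with only the first A of each copy free. The Abcg1 matches lie 1.2, 15.8 and 18 kb from that gene's start, and the one in the Abca1 gene body lies 43.9 kb from the start of Abca1. Matches to other elements are given as well, and a link of these to the LPS response was not tested. The PPAR element, AGGTCANAGGTCA (DR1), was found in the whole length of 1 member peak, in Abca1 60.5 kb from the start, and in 0.352% of all peaks. The κB element, searched as GGGANNTTCC, lay in the whole length of 16 members (6.72%) and of 4.88% of all peaks, and 1 of them is in the Mylip peak with the largest response to LPS, 28.3 kb from the start and beyond the gene's end. That Mylip peak is 6896 bases wide, against a median of 956 bases for all peaks. The DR1 and κB matches are shown on their strand, with the matched bases in capitals.
Abca1 gene body (peak 16), chr4:53112186-53112288, minus strand: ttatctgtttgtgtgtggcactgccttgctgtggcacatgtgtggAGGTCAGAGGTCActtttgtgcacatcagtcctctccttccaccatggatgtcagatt
Mylip downstream (peak 6), chr13:45513364-45513463, plus strand: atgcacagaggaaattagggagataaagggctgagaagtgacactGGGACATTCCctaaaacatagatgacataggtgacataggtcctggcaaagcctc

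Other elements were no more frequent in the central 300 bases of the members than elsewhere, as a description. The AP-1 element TGANTCA lay in 27 members (11.3%) and 12.1% of all peaks. The PU.1 element GAGGAAGT lay in 5 (2.1%) and 4.58%, the κB element in 2 (0.84%) and 1.26%, and the interferon element GAAANNGAAA in 8 (3.36%) and 4.4%. Member peaks had a median width of 1190.5 bases against 956 for all peaks, so whole-peak shares compare stretches of unequal length.

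The 8 loci held between 7 peaks (Mylip) and 54 peaks (Mertk), with 27 at Nr1h3, 14 at Nr1h2, 40 at Abca1, 44 at Abcg1, 16 at Apoe and 36 at Pparg. By position, 20 peaks covered the promoter of the member gene (1000 bases before to 100 after an annotated transcript start), 42 overlapped another of its exons, 79 lay in its introns and 97 in its flanks. The nearest coding start was that of another gene for 98 of them, such as Acp2 and Madd near Nr1h3, Apoc1 near Apoe and Tff3 near Abcg1. By these annotated starts no peak covered the promoter of Mylip, although 1 of its 7 peaks is in the promoter class as deposited.

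Library totals in peaks ranged from 12020526 to 25908198 counts, and 1 CPM, the count scaled to library size in which all levels are given here, stands for about 18.8 reads in the mean library. Unstimulated replicates 1 and 2 stood apart in scaling. The TMM factors of the unstimulated libraries, which equalize the bulk of the peaks, were 1.243, 1.151 and 1.038, and the other 15 libraries had factors from 0.8964 to 1.049. Every comparison with unstimulated cells rests on this scaling. Scaling by total counts moved the median of all peaks from -0.03 to -0.26 (log2) for LPS, from -0.09 to -0.37 for (+)-JQ1 and from -0.05 to -0.26 for IL-10, and between LPS groups by at most 0.07. Promoters of 9 of 9 macrophage marker genes had a peak, with a summed level of 166 to 264 CPM over the groups. These markers include Mertk, whose promoter peak is also a member peak. Of the markers of other cells, 1 of 6 T cell genes (12.9 to 22.4 CPM), 4 of 5 B cell genes (15.3 to 19.4 CPM), 4 of 6 neutrophil genes (39.0 to 64.4 CPM), 4 of 4 dendritic cell genes (38.2 to 49.5 CPM), 2 of 4 fibroblast genes (34.2 to 42.8 CPM) and 4 of 4 epithelial genes (11.2 to 13.5 CPM) had one, and their part in the results was not tested.

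LPS lowered accessibility at many of these loci, above all along Abca1, Apoe and Mylip. As compared with unstimulated cells, 51 of the 238 member peaks fell (21.4%) and 10 rose (4.2%), with calls made where the FDR was under 0.05 and the log2 fold change past 0.5 in either direction, beside 10.2% of all tested peaks that fell and 11.7% that rose. The median log2 fold change was -0.35 for members and -0.03 for all peaks. Falls counted 21 of 40 peaks at Abca1, 7 of 44 at Abcg1, 6 of 16 at Apoe, 7 of 36 at Pparg, 5 of 54 at Mertk, 4 of 7 at Mylip, 1 of 27 at Nr1h3 and 0 of 14 at Nr1h2, where 2 fell at an unadjusted p under 0.05 and 0 by DESeq2. Rises counted 4 at Mertk, 2 each at Nr1h3 and Abcg1 and 1 each at Nr1h2 and Abca1. Scaled by total counts, 81 members fell and 3 rose, with loess offsets 58 fell and 5 rose, and without unstimulated replicate 3 the rises counted 17. Total counts also moved the median of all peaks down, as given above. Here and below, counts from alternative fits stand without the share of all tested peaks called in the same fit.

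Under LPS some of these loci were more open with either pretreatment, with counts that differed by gene. In cells given (+)-JQ1 before LPS, 24 members were higher than with LPS alone (10.1%, against 1.74% of all tested peaks) and 4 were lower (1.7%, against 3.49%), with a median log2 fold change of 0.24 for members and 0 for all peaks. They were 8 peaks of Pparg, 6 of Abca1, 4 of Mylip, 3 of Apoe, 2 of Nr1h3 and 1 of Abcg1. In cells given IL-10 before LPS, 30 members were higher than with LPS alone (12.6%, against 4.26%) and 6 were lower (2.5%, against 4.51%), with medians of 0.15 and -0.01. Of the 30 higher peaks 21 were at Abca1, 3 each at Apoe and Pparg, 1 each at Nr1h3, Abcg1 and Mertk, and 0 at Mylip and Nr1h2, where 0 and 1 rose at an unadjusted p under 0.05 and 0 by DESeq2. The count for (+)-JQ1 was 13 without LPS replicate 1, 15 without LPS + (+)-JQ1 replicate 2 and 12 without LPS + (+)-JQ1 replicate 3, while leaving out any 1 library or replicate number kept the count for IL-10 between 25 and 33. The 4 lower peaks for (+)-JQ1 were 2 without LPS + (+)-JQ1 replicate 2, and the 6 for IL-10 were 2 without replicate 2 of every group and 0 without replicate 3.

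**Figure D1:**
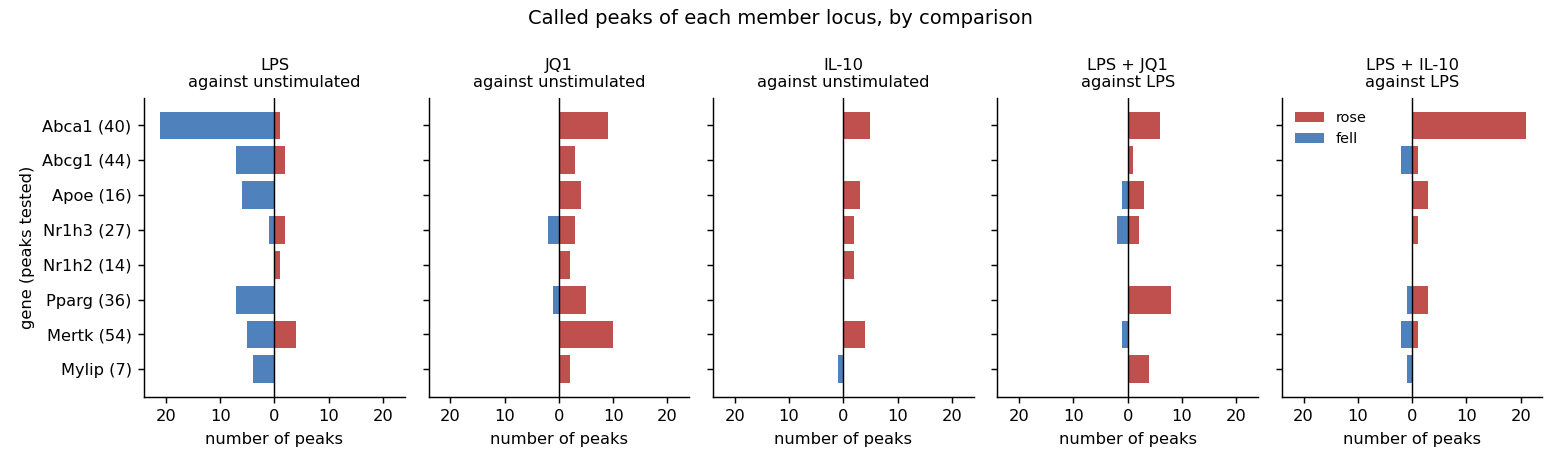
Number of member peaks that rose (bars to the right) or fell (bars to the left) at each of the 8 genes, in 5 comparisons between groups. A peak counts where its FDR is under 0.05 and its log2 fold change past 0.5. The 21 peaks of Abca1 that fell with LPS and the 21 that were higher with IL-10 before LPS are the longest bars. Mylip has 4 falls with LPS, 4 rises with (+)-JQ1 under LPS and 0 rises with IL-10 under LPS.

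Of the 51 member peaks that LPS lowered, 16 were higher with (+)-JQ1 than with LPS alone, 21 were higher with IL-10, 8 with both and 22 with neither. These are 31.4%, 41.2%, 15.7% and 43.1% of them, beside 6.99%, 10.8%, 2.52% and 84.7% of all 19802 peaks that LPS lowered. All these comparisons share the LPS libraries, so the counts describe where peaks were higher and are not independent of one another. At Abca1 5 of the 21 lowered peaks were higher with (+)-JQ1 and 17 with IL-10, at Mylip 4 of 4 with (+)-JQ1 and 0 with IL-10, and at Apoe 3 and 2 of 6. At Pparg 3 of 7 were higher with (+)-JQ1 and 1 with IL-10, at Abcg1 1 of 7 with each, and the 5 at Mertk and the 1 at Nr1h3 with neither.

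Abca1 (mm9 chr4:53043659-53172767, minus strand) responded differently at its start and along its body. Its promoter peak 6 (chr4:53172049-53173169), which holds the match shown above, did not pass the fold limit with LPS. Its levels were 19.9, 26.5 and 34.0 CPM in unstimulated libraries 1 to 3 and 41.0, 38.9 and 32.6 with LPS, so the groups overlapped (log2 fold change 0.48, SE 0.14, adjusted p = 0.0063). After LPS it stood at 41.5, 43.3 and 43.7 CPM with (+)-JQ1 and at 37.8, 32.6 and 29.4 with IL-10, and neither differed from LPS alone past the threshold (0.19, SE 0.14, adjusted p = 0.52, and -0.18, SE 0.14, adjusted p = 0.48). The promoter was thus in the same range in all 9 libraries with LPS, from 29.4 to 43.7 CPM. The other promoter peak upstream (peak 5) had 3.57 ± 0.484 CPM unstimulated and 4.86 ± 0.747 with LPS (mean ± SD, n = 3), and it passed in no comparison.

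Along the body the picture was another one. From 52 to 130 kb after the start, a stretch chosen after its values were seen, 17 peaks covered exons and introns with long, low signal. Of these, 15 fell with LPS, with a median log2 fold change of -1.18 and a range from -1.87 to -0.73. Summed over the 17 peaks, accessibility was 101, 99.8 and 114 CPM in unstimulated libraries, 39.2, 55.0 and 44.7 with LPS, 42.9, 76.2 and 71.7 with LPS + (+)-JQ1 and 119, 134 and 102 CPM with LPS + IL-10. The LPS libraries lay below every unstimulated library, those with IL-10 lay at or above the unstimulated level, and those with (+)-JQ1 overlapped the LPS libraries because replicate 1 stayed low. With IL-10 before LPS 15 of the 17 rose against LPS alone (median 1.37), and with (+)-JQ1 3 did (median 0.52).

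Peak 23 (chr4:53078520-53087811), 89.6 kb from the start over coding exons, had the largest fall with LPS at Abca1 among peaks with at least 50 mean counts. It gave 14.4, 16.7 and 21.5 CPM in unstimulated libraries and 4.64, 8.54 and 6.57 CPM with LPS (log2 fold change -1.42, SE 0.17, adjusted p = 1.64e-11). With IL-10 before LPS it gave 18, 18.3 and 16.3 CPM, all above every LPS library (1.42, SE 0.17, adjusted p = 1.09e-10). With (+)-JQ1 before LPS it gave 5.30, 9.93 and 12.4 CPM, which overlap the LPS libraries, and the call was at the threshold (0.53, SE 0.17, adjusted p = 0.05). Neighbouring peaks went the same way. Peak 25, at 110 kb, had 9.46 ± 1.40 CPM unstimulated, 3.83 ± 0.324 with LPS, 5.35 ± 1.66 with LPS + (+)-JQ1 and 11.4 ± 3.69 with LPS + IL-10 (mean ± SD, n = 3).

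Nearer the start, at 30.6 and 35.7 kb, peaks 12 and 13 also fell with LPS, by 0.69 and 0.60 on the log2 scale (SE 0.14 and 0.15). Peak 12 (chr4:53138611-53145663) stood at 16.0 ± 0.458 CPM unstimulated, 9.94 ± 0.301 with LPS, 12.8 ± 1.88 with LPS + (+)-JQ1 and 25.9 ± 1.11 with LPS + IL-10. The IL-10 libraries of peak 12 were above the unstimulated ones as well, at 24.6 to 26.8 against 15.5 to 16.4 CPM. Among called peaks of this gene with at least 50 mean counts, peak 13 had the largest rise with (+)-JQ1 under LPS, from 7.58, 8.44 and 7.11 CPM to 11.7, 13.3 and 12.1 CPM (0.68, SE 0.15, adjusted p = 0.00102), and the groups did not overlap. With IL-10 it rose further, to 18.7, 19.8 and 18 CPM (1.29, SE 0.15, adjusted p = 2.24e-11). A low peak at an internal transcript start 118.4 kb in, peak 27, had the largest fall of the promoter-class members, from 1.81, 1.59 and 2.25 CPM to 0.597, 0.499 and 0.418 CPM (-1.87, SE 0.38, adjusted p = 5.41e-05), at a mean normalized count of 21.6 over all libraries.

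**Figure D2:**
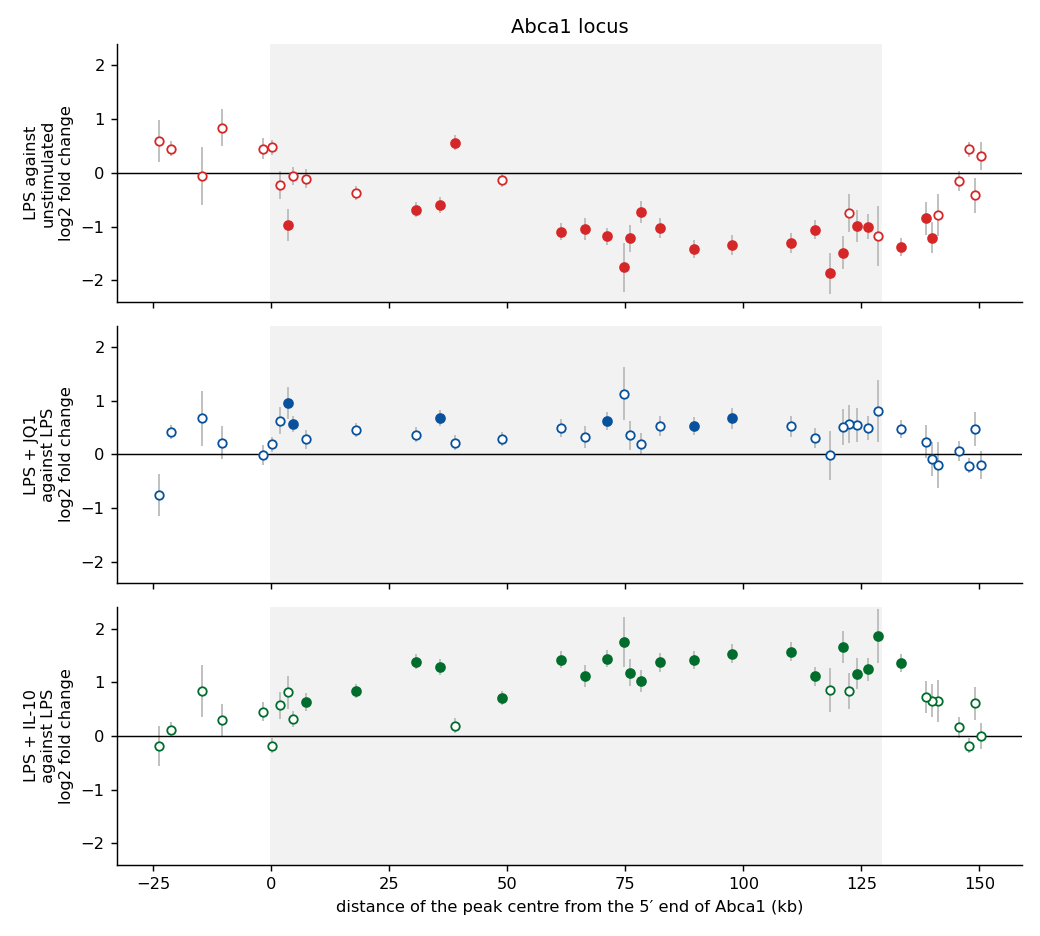
Log2 fold change ± SE of each Abca1 peak by its distance in kb from the 5′ end of the gene, for LPS against unstimulated, LPS + (+)-JQ1 against LPS and LPS + IL-10 against LPS; filled points passed the test and the shaded part is the gene. Between 52 and 130 kb the points lie between -1.87 and -0.73 with LPS and between 0.84 and 1.86 with IL-10 under LPS, and between -0.02 and 1.13 with (+)-JQ1 under LPS.

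Abcg1 (chr17:31194643-31252722, plus strand) changed at fewer of its peaks. The promoter peak 9 (chr17:31194739-31195929), with an LXR-like match 1.2 kb from the start, was at 11.4, 13.6 and 15.5 CPM unstimulated and at 16.4, 15.9 and 12.9 CPM with LPS, overlapping groups (log2 fold change 0.16, SE 0.14, adjusted p = 0.45). With LPS + (+)-JQ1 it was at 18, 22 and 19.6 CPM, above all 3 LPS libraries but short of the threshold (0.40, SE 0.14, adjusted p = 0.075), and with LPS + IL-10 at 13.7, 12.9 and 15.8 CPM (-0.10, adjusted p = 0.74). Peak 16 in an intron, which holds the other 2 matches shown, rose with LPS from 11.9 ± 0.663 to 17.5 ± 1.88 CPM (0.54, SE 0.14, adjusted p = 0.00204). It was chosen for its matches after values were seen.

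A distal peak 23.1 kb upstream of Abcg1, peak 1 (chr17:31170439-31172569), had the largest change at this locus with LPS and with either pretreatment under LPS, among called peaks with at least 50 mean counts. It went from 4.15, 3.57 and 3.56 CPM to 1.65, 1.20 and 1.49 CPM with LPS (-1.37, SE 0.25, adjusted p = 5.67e-06). It was higher both with (+)-JQ1 (2.69, 2.73 and 3.80 CPM, 1.10, SE 0.25, adjusted p = 0.00137) and with IL-10 (3.15, 2.49 and 2.48 CPM, 0.90, SE 0.25, adjusted p = 0.0104) than with LPS alone. Neither group overlapped the LPS libraries, but both calls rest on few libraries. Without LPS + (+)-JQ1 replicate 3 the first had an adjusted p of 0.059, and without LPS replicate 2 or LPS + IL-10 replicate 1 the second had 0.074.

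Apoe (chr7:20281458-20284515, minus strand) had the largest fall of any member. Peak 8 (chr7:20278523-20282743) covers the 3′ exons of Apoe and the stretch towards Apoc1, and its nearest coding start is that of Apoc1, another lipoprotein gene. It gave 22, 35.6 and 44.3 CPM in unstimulated libraries and 8.55, 7.54 and 8.78 CPM with LPS (log2 fold change -2.04, SE 0.16, adjusted p = 1.16e-20), so that every LPS library was far below every unstimulated one. With (+)-JQ1 before LPS it gave 12.2, 16.3 and 13.5 CPM (0.76, SE 0.16, adjusted p = 0.000595) and with IL-10 before LPS 16.1, 16.4 and 14.5 CPM (0.92, SE 0.16, adjusted p = 1.02e-05), all 6 values above the LPS libraries and below the unstimulated ones. Without replicate 2 of every group the rise with (+)-JQ1 had an adjusted p of 0.22.

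The Apoe promoter did not share that partial return past the threshold. Peak 7 (chr7:20283702-20284565) fell from 12.1, 15.6 and 19.8 CPM to 6.62, 6.49 and 5.49 CPM with LPS (-1.35, SE 0.16, adjusted p = 1.06e-11). It then stood at 8.37, 9.01 and 8.38 CPM with (+)-JQ1 (0.46, SE 0.17, adjusted p = 0.082) and at 7.67, 5.62 and 6.98 CPM with IL-10 (0.12, SE 0.17, adjusted p = 0.72). The (+)-JQ1 libraries lay above the LPS libraries and the IL-10 libraries overlapped them. The second promoter peak, peak 6, which lies upstream of the start, was at 6.32 ± 1.49 CPM unstimulated and 5.37 ± 0.119 with LPS (mean ± SD, n = 3; -0.24, adjusted p = 0.34). Peak 13, 14.9 kb from the start and nearest to Apoc2, fell with LPS by 0.91 on the log2 scale and was higher with both pretreatments, by 0.58 (adjusted p = 0.0329) and 0.79 (adjusted p = 0.000596); it was named after its values were seen. Summed over the 16 peaks, Apoe stood at 123 ± 18.4 CPM unstimulated, 73.3 ± 0.33 with LPS, 87.8 ± 10.8 with LPS + (+)-JQ1 and 97.9 ± 6.22 with LPS + IL-10.

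Mylip (chr13:45485111-45507388, plus strand) followed the reverse order of Abca1. Peak 6 (chr13:45506961-45513857), which covers the gene's 3′ end and runs past it, gave 25.1, 26.3 and 26.8 CPM unstimulated and 9.60, 9.29 and 7.88 CPM with LPS (-1.54, SE 0.14, adjusted p = 7.1e-17). With (+)-JQ1 before LPS it gave 21.0, 21.1 and 21.9 CPM, above every LPS library and below every unstimulated one (1.25, SE 0.14, adjusted p = 1.58e-11). With IL-10 before LPS it gave 7.01, 7.94 and 6.89 CPM, which overlap the LPS libraries (-0.30, SE 0.15, adjusted p = 0.21). Peaks 4 and 5, which together cover most of the gene (peak 4 named after its values were seen), fell with LPS by 0.73 (SE 0.13) and 1.52 (SE 0.20) and were higher with (+)-JQ1 by 0.92 (SE 0.13) and 1.07 (SE 0.21).

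Summed over peaks 4 to 6, a stretch chosen after its values were seen, Mylip had 68.3, 77.6 and 84.8 CPM unstimulated, 37.1, 41.4 and 34.0 with LPS, 76.8, 75.1 and 75.9 with LPS + (+)-JQ1 and 32.0, 33.3 and 31.6 with LPS + IL-10. The (+)-JQ1 libraries lay inside the unstimulated range, and the IL-10 libraries below all LPS libraries. Upstream, 17.6 kb before the start, peak 1 went from 5.96, 6.04 and 6.41 CPM to 2.76, 4.2 and 3.76 CPM with LPS (-0.79, SE 0.19, adjusted p = 0.000927) and to 5.83, 7.75 and 5.31 CPM with LPS + (+)-JQ1 (0.82, SE 0.19, adjusted p = 0.00201). The peak nearest the start, peak 3, which like peak 7 was named after values were seen, had 11.8 ± 2.05 CPM unstimulated and 11.9 ± 1.05 with LPS (mean ± SD, n = 3; 0.01, adjusted p = 0.98). The 1 Mylip peak lower with IL-10 under LPS was peak 7 beyond the gene, from 2.96 ± 0.497 to 1.34 ± 0.193 CPM (-1.14, SE 0.27, adjusted p = 0.00157).

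**Figure D3:**
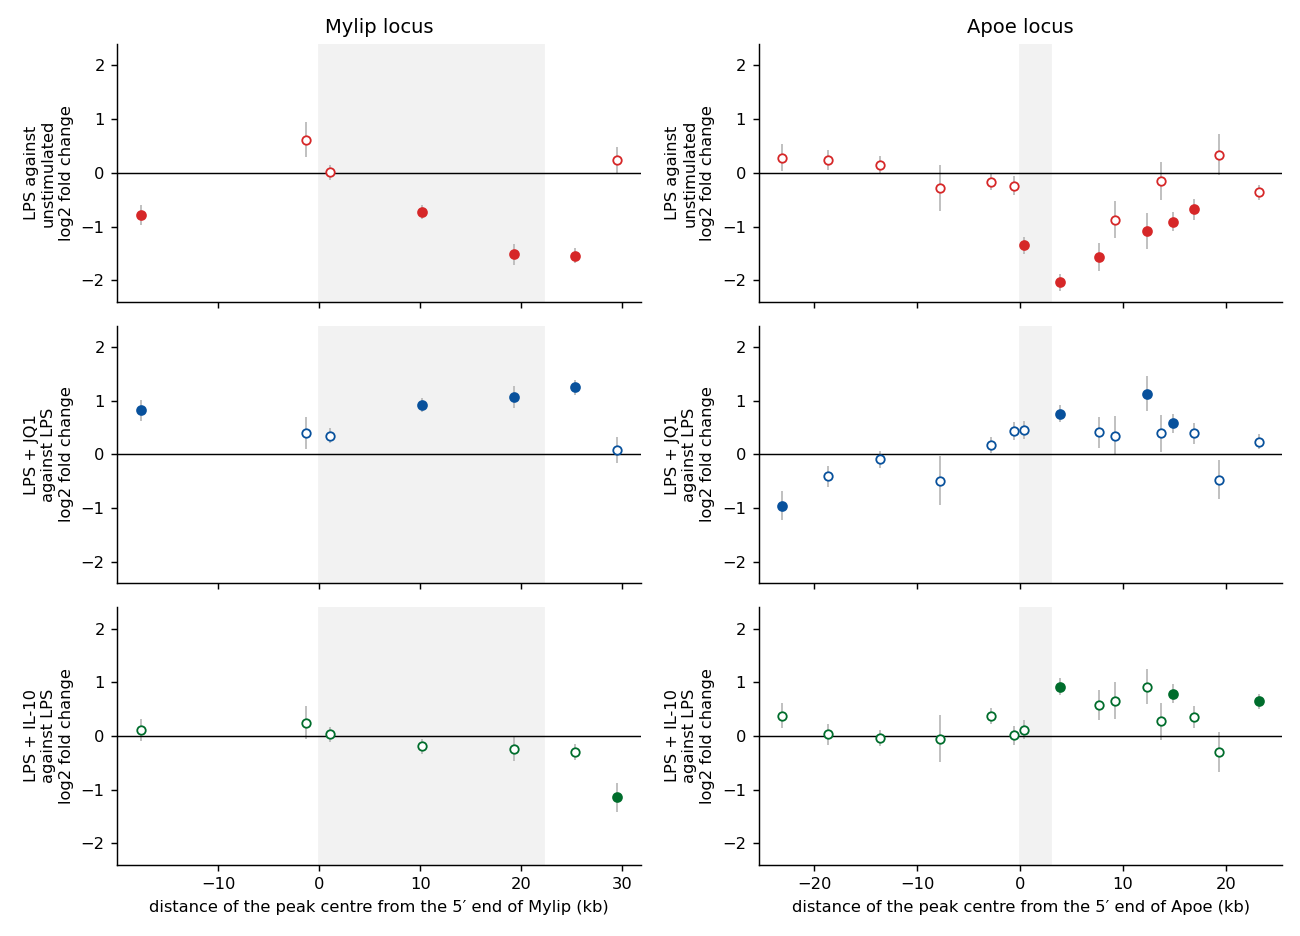
Log2 fold change ± SE of each peak at Mylip and at Apoe by its distance in kb from the 5′ end of the gene, for the same 3 comparisons as at Abca1; filled points passed the test and the shaded part is the gene. At Mylip the gene-covering peaks lie at -0.73 to -1.54 with LPS, at 0.92 to 1.25 with (+)-JQ1 under LPS and at -0.30 to -0.19 with IL-10 under LPS, while Apoe peak 8 lies at -2.04, 0.76 and 0.92.

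The receptor genes themselves moved less. At Nr1h3 (chr2:91024218-91042991, minus strand) the promoter peak 8 (chr2:91042352-91045830), which also covers the start of Acp2, had 23.1, 23.9 and 29.4 CPM unstimulated and 31.1, 31.9 and 29.8 CPM with LPS (0.28, SE 0.13, adjusted p = 0.12). It stood at 38.7, 42.0 and 36.7 CPM with LPS + (+)-JQ1 (0.34, SE 0.13, adjusted p = 0.13) and at 27.2, 30.6 and 32.7 CPM with LPS + IL-10 (-0.04, adjusted p = 0.91). Of 5 peaks at Nr1h3 transcript starts, 1 passed under LPS. It was peak 14 at a start 7.8 kb inside the gene, from 9.0, 8.79 and 9.08 CPM with LPS to 10.9, 13.9 and 14.0 CPM with LPS + (+)-JQ1 (0.54, SE 0.15, adjusted p = 0.017). The other 3, peaks 15 to 17, had means under 5 CPM in every group.

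In an intron 5.9 kb from the start of Nr1h3, peak 13 (chr2:91036657-91037564) rose with LPS, from 11.2, 11.8 and 21.0 CPM to 30.6, 28.8 and 23.7 CPM (0.92, SE 0.15, adjusted p = 3.97e-07), and the groups did not overlap. Like promoter peak 8, this peak also overlaps an exon of another annotated gene, Gm13783. It stayed at 27.0, 27.3 and 26.1 CPM with (+)-JQ1 and 22.6, 22.9 and 23.2 CPM with IL-10 under LPS, and neither passed against LPS alone (-0.05, adjusted p = 0.91, and -0.28, adjusted p = 0.23). Among called peaks of this window with at least 50 mean counts, the largest change with (+)-JQ1 under LPS lay over the neighbour Ddb2, a DNA repair gene. There peak 2 (chr2:91056201-91065685) had 22.3, 23.9 and 22.9 CPM with LPS, and 13.1, 12.4 and 12.8 where (+)-JQ1 came first (-0.85, SE 0.14, adjusted p = 4.55e-06) and 30.5, 29.2 and 31.1 CPM with LPS + IL-10.

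At Nr1h2 (chr7:51804986-51809321, minus strand) the promoter peak 5 (chr7:51808663-51809620) rose with LPS from 26.2, 27.4 and 37.8 CPM to 47.8, 44.6 and 48.0 CPM (0.62, SE 0.13, adjusted p = 0.00019), a call that ended by total counts (0.40) and with loess offsets (0.20). With LPS it stood at 42.4, 44.1 and 38.7 CPM after (+)-JQ1 (-0.17, adjusted p = 0.58) and at 37.8, 41.3 and 33.7 CPM after IL-10 (-0.32, SE 0.13, adjusted p = 0.12). Of the 14 Nr1h2 peaks 0 passed for either pretreatment under LPS by edgeR or by DESeq2, and at an unadjusted p under 0.05 by edgeR 1 was lower with (+)-JQ1 and 1 was higher and 2 were lower with IL-10. The other peaks at its starts, 4 and 6, passed in no comparison.

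At Pparg (chr6:115311239-115440419, plus strand) (+)-JQ1 gave more calls under LPS than at any other member, 8 of 36 peaks. This ranking is by count. By share Mylip came first, with 57.1% of its peaks higher against 22.2% at Pparg. Peak 3 (chr6:115293044-115294971), 17.2 kb upstream of the start, fell with LPS from 10.4, 13 and 15.3 CPM to 8.04, 7.99 and 7.59 CPM (-0.72, SE 0.15, adjusted p = 0.00012). With (+)-JQ1 before LPS it was at 17.3, 12.3 and 16.2 CPM, above every LPS library (0.95, SE 0.15, adjusted p = 1.25e-06). With IL-10 it was at 11.3, 9.44 and 12.5 CPM, a log2 fold change of 0.50 that did not pass the fold limit (SE 0.15, adjusted p = 0.02). The promoter peak 5 went from 9.14, 9.09 and 8.0 CPM with LPS to 11.7, 13.3 and 13.6 CPM with (+)-JQ1 (0.56, SE 0.15, adjusted p = 0.00901) and 8.84, 9.73 and 10.2 CPM with IL-10 (0.13, adjusted p = 0.67). An intronic peak 14.2 kb from the start, peak 11, was at 13.4 ± 1.61 CPM with LPS, 20.8 ± 0.714 with (+)-JQ1 and 14.0 ± 1.19 with IL-10 (mean ± SD, n = 3).

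IL-10 moved other Pparg peaks. Peak 18, at a second transcript start 60.6 kb in, was at 0.322, 0.499 and 0.239 CPM with LPS and 1.52, 1.45 and 0.965 CPM with LPS + IL-10 (1.85, SE 0.45, adjusted p = 0.0022), at a mean normalized count of 12.8 over all libraries. Peak 22, in an intron at 107.1 kb, was lower with IL-10, at 1.78, 1.80 and 1.84 CPM against 3.31, 3.05 and 3.40 with LPS (-0.85, SE 0.24, adjusted p = 0.0112). The groups did not overlap at either peak.

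At Mertk (chr2:128524692-128628630, plus strand) the promoter peak 5 (chr2:128523984-128524967) was at 24.6, 32.9 and 41.5 CPM unstimulated and 31.7, 28.2 and 31.2 CPM with LPS (-0.13, SE 0.14, adjusted p = 0.56). Under LPS it stood at 32.6, 46.4 and 38.6 CPM with (+)-JQ1 (0.37, SE 0.14, adjusted p = 0.11) and 29.9, 27.7 and 27.2 CPM with IL-10 (-0.10, adjusted p = 0.73). The intronic peak 17, 42.4 kb from the start, rose with LPS from 2.61, 1.87 and 1.70 CPM to 4.69, 4.15 and 7.05 CPM (1.36, SE 0.23, adjusted p = 1.61e-06) and was lower with IL-10 under LPS, at 2.49, 2.55 and 2.25 CPM (-1.11, SE 0.22, adjusted p = 0.000139). With (+)-JQ1 peak 17 was at 4.76, 3.71 and 3.80 CPM, overlapping LPS alone (-0.38, SE 0.21, adjusted p = 0.37). The 1 Mertk peak lower with (+)-JQ1 under LPS was peak 28 at an internal start 72.1 kb in, from 7.81, 6.69 and 9.97 CPM to 2.99, 4.04 and 4.65 CPM (-1.02, SE 0.19, adjusted p = 3.14e-05).

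**Figure D4:**
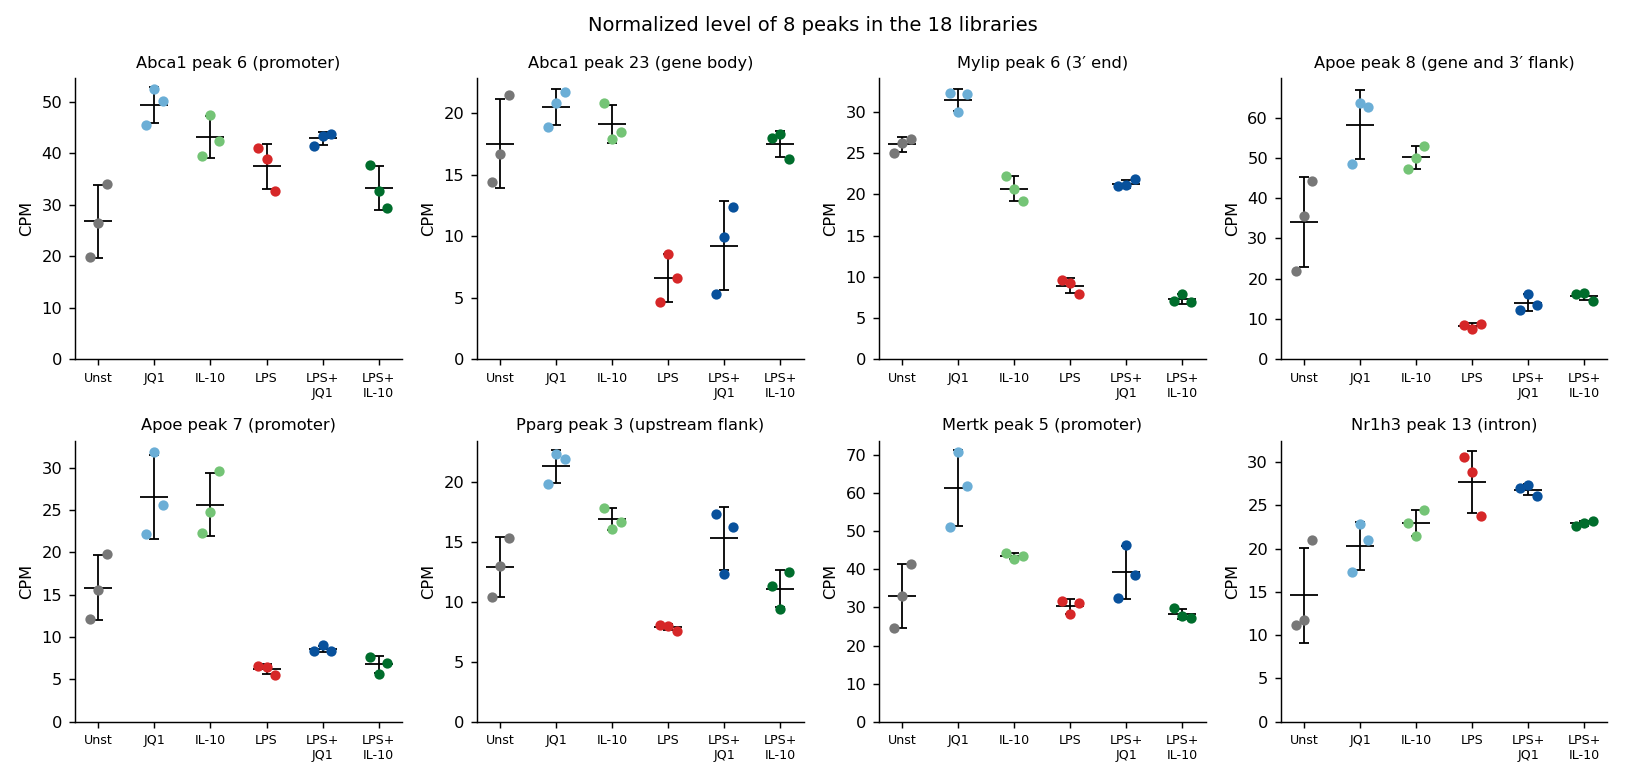
Accessibility in CPM (TMM-scaled, axis from 0) of 8 member peaks in all 18 libraries by group; points are libraries and bars the mean ± SD of 3. Abca1 peak 23 is at 16.3 to 18.3 CPM with LPS + IL-10 and 5.30 to 12.4 with LPS + (+)-JQ1, and Mylip peak 6 is at 6.89 to 7.94 and 21.0 to 21.9 CPM.

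The 2 pretreatments were then compared directly under LPS, a comparison added after the data were seen. Of the 238 members 22 were higher with (+)-JQ1 (9.2%, against 3.43% of all tested peaks) and 21 were lower (8.8%, against 4.68%). Scaled by total counts these were 11 and 24, and without replicate 2 of every group the higher ones were 10. The loci split. Abca1 had 15 lower peaks and 0 higher, Nr1h3 3 lower and 0 higher, and Apoe 1 lower and 0 higher, whereas Abcg1 had 10 higher and 0 lower and Mylip 5 higher and 0 lower. Pparg had 4 higher and 1 lower, Mertk 2 and 1, and Nr1h2 1 and 0. DESeq2 gave 0 as well for each of these counts of 0, and edgeR at an unadjusted p under 0.05 gave 2 higher peaks each at Abca1, Nr1h3 and Apoe, 1 lower at Nr1h2 and 0 lower at Abcg1 and Mylip.

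At Abca1 the median of the 17 peaks from 52 to 130 kb was -0.83, and 12 of them passed. Peak 12 had the difference of -1.01 (SE 0.14, adjusted p = 8.44e-09) and peak 23 of -0.88 (SE 0.16, adjusted p = 2.84e-05). At Mylip peak 6 was higher with (+)-JQ1 by 1.55 (SE 0.14, adjusted p = 1.41e-15), with no overlap between 21.0 to 21.9 and 6.89 to 7.94 CPM. At Abcg1 most of the 10 peaks lay in the 3′ part of the gene and beyond it towards Tff3, and as an example chosen after values were seen, peak 41, 68.4 kb from the start, had 4.22, 6.82 and 7.52 CPM with (+)-JQ1 and 3.66, 2.67 and 3.54 CPM with IL-10 (0.94, SE 0.19, adjusted p = 0.000178). The promoter peaks of Abca1 (0.37, adjusted p = 0.077), Apoe (0.34, adjusted p = 0.20), Nr1h3 (0.37, adjusted p = 0.057) and Nr1h2 (0.15, adjusted p = 0.57) did not pass.

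**Figure D5:**
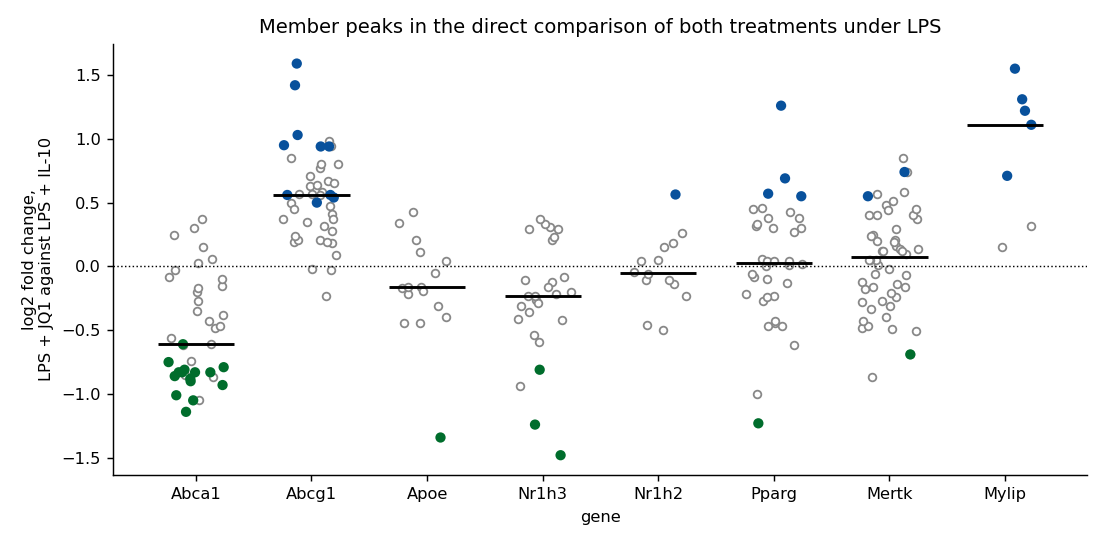
Log2 fold change of every member peak between LPS + (+)-JQ1 and LPS + IL-10, by gene, with a line at each gene's median; coloured points passed the test. Abca1 has 15 passing points below 0 and 0 above, Mylip 5 above and 0 below and Abcg1 10 above and 0 below.

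Without LPS the direction of the members' change depended on the scaling. With (+)-JQ1 alone 38 members rose (16.0%, against 7.85% of all tested peaks) and 3 fell (1.3%, against 3.15%), with a median log2 fold change of 0.15 for members and -0.09 for all peaks. Scaled by total counts 10 rose and 12 fell, with a median of -0.14 for members and -0.37 for all peaks, and with loess offsets 13 rose and 3 fell. Without unstimulated replicate 1, 25 rose and 1 fell, and without unstimulated replicate 3, 5 fell. The rises were 10 at Mertk, 9 at Abca1, 5 at Pparg, 4 at Apoe, 3 each at Nr1h3 and Abcg1 and 2 each at Nr1h2 and Mylip. With IL-10 alone 16 rose (6.7%, against 5.16%) and 1 fell (0.4%, against 3.5%), a share of rises near that of all peaks, with medians of 0.07 and -0.05. Scaled by total counts 4 rose and 11 fell, with medians of -0.14 and -0.26, with loess offsets 0 rose and 4 fell, and without unstimulated replicate 3, 33 rose and 3 fell.

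Abca1 peak 9 (chr4:53167752-53168720), in an intron 4.5 kb from the start, had the largest rise with (+)-JQ1 alone. It was at 7.23, 7.86 and 11.5 CPM unstimulated and 18.7, 20.7 and 23.3 CPM with (+)-JQ1 (1.23, SE 0.15, adjusted p = 4.89e-09), and 0.96 and 0.99 when scaled by total counts and with loess offsets. IL-10 alone left it at 11.7, 11.3 and 11.5 CPM (0.37, SE 0.15, adjusted p = 0.10). The Abcg1 promoter peak 9 rose with (+)-JQ1 to 26.2, 26.9 and 22.4 CPM (0.89, SE 0.14, adjusted p = 1.22e-06) and kept its call in both scalings, at 0.61 and 0.53. Pparg peak 11 (27.3, 28.4 and 27.7 CPM, 1.00, SE 0.14) and Mertk peak 43 (20.9, 22.3 and 26 CPM, 0.99, SE 0.15), 107.8 kb from the start of Mertk, kept theirs too.

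Other promoters lost the call in a scaling. The Abca1 promoter rose to 45.6, 52.5 and 50.2 CPM with (+)-JQ1 (0.88) and to 39.5, 47.5 and 42.5 CPM with IL-10 (0.68), and with loess offsets these were 0.29 and 0.27, inside the fold limit. The Mertk promoter rose to 51.1, 70.9 and 62.0 CPM with (+)-JQ1 (0.89), and to 0.29 on the log2 scale with loess offsets. The Apoe promoter rose to 22.1, 31.8 and 25.6 CPM with (+)-JQ1 (0.73) and 22.3, 24.8 and 29.6 CPM with IL-10 (0.69), and 0.46 and 0.49 by total counts. The Nr1h2 promoter was at 42.6, 48.3 and 42.3 CPM with (+)-JQ1 (0.54) and turned to -0.07 with loess offsets. A fall in both scalings was that of Nr1h3 peak 2 over Ddb2, to 8.77, 7.70 and 11.9 CPM with (+)-JQ1 (-0.77, SE 0.15), and of Mylip peak 5 with IL-10, to 4.82, 6.37 and 3.62 CPM (-0.68, SE 0.19).

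The interaction asks whether the LPS effect itself differed with a pretreatment. With (+)-JQ1 it was higher at 6 members (2.5%, against 0.649% of all tested peaks) and lower at 10 (4.2%, against 3.19%), and with IL-10 higher at 17 (7.1%, against 2.01%) and lower at 10 (4.2%, against 5.9%). The lower calls with (+)-JQ1 were 3 by total counts and 1 with loess offsets, and they were 4 without JQ1 replicate 3 or LPS replicate 1, 5 without LPS replicate 2, LPS replicate 3, unstimulated replicate 1 or LPS + (+)-JQ1 replicate 1, 2 without JQ1 replicate 2, 1 without unstimulated replicate 2 or LPS + (+)-JQ1 replicate 3, and 18 without unstimulated replicate 3. The higher calls with (+)-JQ1 were 2 without LPS replicate 1 or LPS replicate 3 and 1 without LPS + (+)-JQ1 replicate 3. With IL-10 the higher calls were 32 by total counts and 11 without LPS replicate 1, and the lower ones 4 with loess offsets and 23 without unstimulated replicate 3. At Mylip the fall with LPS was smaller with (+)-JQ1 at peaks 4, 5 and 6, by 0.63, 1.07 and 0.98 on the log2 scale (SE 0.19, 0.28 and 0.19). At Abca1 11 of the 17 higher interactions with IL-10 were found, among them peak 23 (1.30, SE 0.23, adjusted p = 4.61e-05).

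With the sequencing lane as a covariate the member counts were 54 lower and 8 higher for LPS, 23 higher and 4 lower for (+)-JQ1 under LPS, and 30 higher and 6 lower for IL-10 under LPS. Replicate 1 was sequenced in lane 5 and replicate 3 in lane 6, while replicate 2 was in lane 5 without LPS and in lane 6 with LPS. Within a lane, 3 of the groups have 1 library each and are assumed to vary like the others. The members' median log2 fold changes are therefore given here, and lane counts that moved are listed with the other alternative fits. With LPS the median was -0.38 in lane 5 and -0.3 in lane 6. For (+)-JQ1 under LPS it was 0.12 in lane 5 and 0.23 in lane 6, and for IL-10 under LPS 0.1 and 0.14.

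Other genes of the pathway were read at their promoters, from lists chosen with earlier results known, beside all 36666 tested promoter peaks, of which 14.3% rose and 6.71% fell with LPS. The list peaks overlap a promoter by position, and those of Apoc1 and Ncoa2 are classed as distal in the deposited table. Each gene's peak was the one with the highest mean count, and several extend far past the promoter window. They include those of Lpl (chr8:71404314-71417571), Stab1 (chr14:31957776-31973161), Axl (chr7:26566333-26574920) and Lrp1 (chr10:127005000-127027175), whose values are thus not of the promoter alone. Of 18 other LXR target genes 2 rose with LPS, Lpl (lipoprotein lipase, 0.78, SE 0.13) and Tgm2 (transglutaminase, 0.74), and 2 fell, Apoc1 (-2.04, the same peak as Apoe peak 8) and Pltp (phospholipid transfer protein, -0.57). By total counts 2 of the 18 rose and 5 fell, and with loess offsets 0 rose and 5 fell. With (+)-JQ1 under LPS 1 of the 18 was higher, Apoc1, beside 1.72% of promoter peaks, and with IL-10 under LPS 2 were, Apoc1 and Apoc2 (0.65), beside 3.04%, while Lpl was lower (-0.54, SE 0.13, adjusted p = 0.00191). The Apoc2 peak (chr7:20258379-20264158) also lies in the Apoe window. The higher calls of this list under LPS were thus all member peaks, already counted at Apoe. With loess offsets neither Lpl call passed the fold limit (0.29 with LPS, -0.31 with IL-10 under LPS), and the second did not by total counts (-0.48). This wide Lpl peak stood at 45.8 ± 6.72 CPM unstimulated, 78.9 ± 6.51 with LPS, 89.3 ± 3.51 with LPS + (+)-JQ1 and 54.2 ± 2.28 with LPS + IL-10 (mean ± SD, n = 3). Srebf1, the lipogenic regulator induced by LXR, stood at 27.0 ± 0.965, 28.0 ± 2.25 and 26.1 ± 0.557 CPM in the 3 LPS groups and passed in none of these comparisons.

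Among efferocytosis genes other than Mertk, 10 of 11 had a tested peak over a promoter, and those of Stab1, Axl and Lrp1 are the wide ones given above. Stab1, a scavenger receptor for dying cells, fell with LPS from 40.9 ± 2.19 to 15.1 ± 0.469 CPM (-1.44, SE 0.14, adjusted p = 5.49e-16) and was higher with (+)-JQ1 at 24.4 ± 0.89 CPM (0.69, SE 0.14, adjusted p = 0.000161) and with IL-10 at 32.1 ± 3.29 CPM (1.09, SE 0.14, adjusted p = 6.4e-10). Axl, a receptor of the same family as MERTK, went the other way, rising with LPS from 24.2 ± 3.09 to 52.4 ± 2.07 CPM (1.12, SE 0.13, adjusted p = 2.34e-11) and lying lower with IL-10 at 29.9 ± 1.51 CPM (-0.81, SE 0.13, adjusted p = 1.89e-06). With (+)-JQ1 Axl stood at 37.5 ± 4.60 CPM, inside the fold limit (-0.49, SE 0.13, adjusted p = 0.00991) but past it by total counts (-0.50) and with loess offsets (-0.57). Under LPS the other called gene of this list was Lrp1, higher with IL-10 (0.63). Of 12 tested lipid uptake and storage genes 1 rose with LPS, Olr1 (a scavenger receptor for oxidized LDL, 1.43, SE 0.18), and 2 were higher with (+)-JQ1 under LPS, Lipa (lysosomal acid lipase, 0.60, SE 0.14) and Cd36 (0.51). Of 15 nuclear receptor partners and coregulators 4 rose with LPS, Med1 by the most (0.75, SE 0.14, but 0.36 and not called with loess offsets), and 1 was lower with (+)-JQ1 under LPS, Ppara (-0.72, SE 0.15).

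Sterol synthesis and uptake genes driven by SREBP2, the regulator that acts when cholesterol is low, had the most called promoters of the 5 lists with LPS. Of 16 tested promoters 7 rose, Insig1 by the most (0.59, SE 0.14, adjusted p = 0.000604), and 0 fell, also by DESeq2 and at an unadjusted p under 0.05, with a median of 0.49 beside 0.12 for all promoter peaks. By total counts and with loess offsets 0 of the 16 rose or fell, with medians of 0.27 and 0.06. For either pretreatment under LPS 0 of 16 passed by edgeR or DESeq2, while at an unadjusted p under 0.05 by edgeR 1 was higher and 1 lower with (+)-JQ1, and 0 were higher and 11 lower with IL-10. Insig1 stood at 64.7 ± 14.3 CPM unstimulated, 97.1 ± 10.7 with LPS, 88.3 ± 9.49 with LPS + (+)-JQ1 and 72.4 ± 12.7 with LPS + IL-10. The rises of the 5 lists together with LPS, 15 in all, were 5 by total counts, 2 with loess offsets, 6 without unstimulated replicate 1, 9 without LPS replicate 1 and 35 without unstimulated replicate 3.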

How the data were processed

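ATAC-seq libraries of 18 samples, 3 in each of 6 groups, were paired-end sequenced by the authors and processed with PEPATAC. Uniquely mapped reads were aligned to mm9 with Bowtie2, peaks were called per library with MACS2 and joined, and ChIPseeker classed them as promoter or distal. The counting tool is not given in the sources used here. The authors deposited raw counts per peak, without normalization or pooling. Their table has 6 further columns that match no described sample and were not used. Coordinates are as deposited, and whether starts count from 0 or 1 is not stated.

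All 18 libraries, grouped by the labels, entered 1 quasi-likelihood fit in edgeR 4.0.16 (R 4.3.3), with TMM scaling, edgeR's filter on low counts and no block, and p-values were adjusted by Benjamini-Hochberg over all 194230 tested peaks. A peak was called at an FDR under 0.05 and an absolute log2 fold change above 0.5. Levels are TMM-scaled CPM, and SE is the standard error of the fitted log2 fold change. The fit was tested on simulated counts. P-values cover the spread between these libraries, and the labels do not say which library came from which of the 3 mice.

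Peaks named with values were each gene's promoter peaks and, per comparison, its called peak with the largest change among those whose mean normalized count was 50 or more and whose direction was shared by all 3 same-numbered pairs. Others are named as chosen afterwards. The 8 genes and all lists were chosen with earlier results of these data known. Alternatives were DESeq2 1.42.0, its size factors, total counts, loess offsets, other filters and limits, a lane covariate, each lane alone (added after the data were seen), a replicate block, only the groups compared, a 5 kb flank, and libraries left out. The comparison of (+)-JQ1 with IL-10 under LPS, the counts over the 5 lists together and the relaxed LXR element were added after the data were seen.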

Additional observations from a re-analysis of the deposited data

Results flagged for a closer look

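At 20 of the interactions of named peaks with a pretreatment, the LPS effect differed between cells with and without it (edgeR interaction term, adjusted p under 0.05 and a log2 difference past 0.5); the value is the LPS effect with the agent minus the LPS effect without it.

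With (+)-JQ1 the LPS effect was higher at Mylip peaks 5 and 6 (1.07 and 0.98) and at Abcg1 peak 1 (1.43), where LPS alone had lowered accessibility. It was lower at the promoter peaks of Abca1 (peak 6, -0.69) and Nr1h2 (peak 5, -0.71), at Abca1 peak 9 (-0.68), at Mertk peak 28 (-1.24) and at Mertk peak 43 (-0.73). At Abca1 peaks 6 and 9, Nr1h2 peak 5 and Mertk peak 43, accessibility was also higher with (+)-JQ1 alone than in unstimulated cells.

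With IL-10 the LPS effect was higher along Abca1, at peak 12 (0.59), peak 23 (1.30) and peak 25 (1.19), at Abcg1 peak 1 (1.53) and at the second Pparg start, peaks 17 (1.69) and 18 (3.02), which have mean normalized counts of 19.8 and 12.8. It was lower at the promoter peaks of Abca1 (peak 6, -0.86) and Nr1h2 (peak 5, -0.85), at Nr1h2 peak 7 over the end of Pold1 (-0.94), at Nr1h3 peak 13 (-0.92), at Mertk peak 28 (-1.01) and at Pparg peak 22 (-1.09). At Abca1 peak 6, Nr1h2 peak 5 and Mertk peak 28, accessibility was also called higher with IL-10 alone than in unstimulated cells. Those calls with IL-10 alone were lost by total counts and with loess offsets. The call at Abca1 peak 12 had an adjusted p of 0.0363 and was lost with DESeq2's size factors and when any of 9 of the 18 libraries was left out.

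Of the 20 interactions 11 kept their call both by total counts and with loess offsets, among them those at Mylip and Abcg1 and at Abca1 peaks 12, 23 and 25. The 9 that did not were those at Abca1 peak 6 and Nr1h2 peak 5 with either agent, at Abca1 peak 9 and Mertk peak 43 with (+)-JQ1, and at Nr1h2 peak 7 and Pparg peaks 17 and 22 with IL-10.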

How the results depend on the processing

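By total counts, 3 members rose and 81 fell with LPS (10 and 51 in the reported fit), 10 and 12 with (+)-JQ1 alone (38 and 3), and 4 and 11 with IL-10 alone (16 and 1); lower interactions with (+)-JQ1 were 3, higher ones with IL-10 32, members higher with (+)-JQ1 than IL-10 under LPS 11, list promoters 5 and 7 with LPS (15 and 3), 2 lower with (+)-JQ1 and 1 lower with IL-10 under LPS. Summed levels became 1633 CPM unstimulated, 1816 with (+)-JQ1, 1727 with IL-10, 1272 with LPS and 1499 with LPS + IL-10 (1437, 1942, 1753, 1308 and 1475). With loess offsets 5 rose with LPS, 13 with (+)-JQ1 and 0 with IL-10, 4 fell with IL-10, lower interactions were 1 with (+)-JQ1 and 4 with IL-10, and list promoters 2 and 11 with LPS, 3 lower with (+)-JQ1 and 1 with IL-10 under LPS. Nr1h2 peak 5 with (+)-JQ1 alone turned to -0.07. With at least 10 counts in every library 5 rose with LPS, 5 and 6 fell with (+)-JQ1 and IL-10 alone, and list promoters were 8 higher with LPS and 3 lower with (+)-JQ1 under LPS. Without a fold limit 17 rose with LPS. With only the groups compared 2 fell with IL-10 and 4 interactions with (+)-JQ1 were lower. At an FDR under 0.01 1 fell with (+)-JQ1 alone, 14 rose and 2 fell with it under LPS, 2 fell with IL-10 under LPS, 2 and 2 interactions with (+)-JQ1 passed and 14 were higher with (+)-JQ1 than IL-10. Within 5 kb 1 fell with (+)-JQ1 alone and 1 under LPS. Over whole peaks members with a match numbered 1 (LXR, the first A free), 28 (1 more letter free), 1 (PPAR), 94 (AP-1), 35 (PU.1), 16 (κB) and 46 (interferon).

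Without single libraries or replicate numbers the counts ranged as follows: LPS 6 to 17 up and 39 to 52 down, (+)-JQ1 alone 13 to 44 and 1 to 5, IL-10 alone 1 to 33 and 0 to 3, (+)-JQ1 under LPS 10 to 29 and 2 to 4, IL-10 under LPS 25 to 33 and 0 to 7, interactions with (+)-JQ1 0 to 7 and 1 to 18 and with IL-10 5 to 19 and 0 to 23, (+)-JQ1 against IL-10 10 to 24 and 15 to 22, and list promoters 6 to 36 and 2 to 4 with LPS, 1 to 5 and 0 to 3 with (+)-JQ1 and 4 and 1 to 3 with IL-10 under LPS. Without replicate 2 of every group 6 rose with LPS, 13 with (+)-JQ1 and 1 with IL-10, 10 with (+)-JQ1 under LPS, and 10 were higher with (+)-JQ1 than IL-10. The cause of these shifts was not tested. Counts of called members in this section stand without the share of all tested peaks called in the same fit. They therefore do not compare members with other peaks. Low counts limit the loci, since 131 of the 238 members had under 50 mean normalized counts (median 42.6).

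Within lane 5, 33 fell with LPS, 31 rose with IL-10 alone, 4 and 1 changed with (+)-JQ1 and 17 and 0 with IL-10 under LPS, 2 interactions with (+)-JQ1 were higher and 6 with IL-10 lower, and 2 were higher with (+)-JQ1 than IL-10. Within lane 6, 5 and 32 changed with LPS, 1 and 0 with (+)-JQ1 alone, 1 rose with IL-10 alone, 1 and 1 interactions with (+)-JQ1 and 6 and 0 with IL-10 passed. Lane fits hold 9 libraries, with a single one in 3 groups. These are the LPS groups in lane 5 and the groups without LPS in lane 6. Lane counts that stayed near the reported fit are left out, among them those for either pretreatment under LPS in lane 6. The lists therefore do not show that an effect was absent from a lane. For (+)-JQ1 under LPS the members' median log2 fold change was 0.12 in lane 5 and 0.23 in lane 6, and for IL-10 under LPS 0.1 and 0.14.

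With the replicate block the member counts were 10 and 50 with LPS, 22 and 4 with (+)-JQ1 and 30 and 6 with IL-10 under LPS. Of the named peaks the block lost 1 call, Pparg peak 18 between (+)-JQ1 and IL-10 under LPS (-1.20, adjusted p = 0.0576), and changed no other call. The labels do not tie the numbers to mice: deviations from the group means correlated by 0.0057 on average between libraries of the same number (-0.0819 to 0.0644, 45 pairs) and by -0.0029 between other numbers (-0.0522 to 0.0754, 90 pairs), and 9 of 18 libraries were closest to their own number. Over 82 results of named peaks and 30 alternative fits, 2206 of 2452 values kept direction and call, 245 lost the call and 1 reversed. Of these fits, 18 left out a single library. Of the 82 results, 31 lost the call in a planned fit other than those that left out libraries. Lost calls numbered 41 without replicate 2 of every group, 24 with loess offsets, 20 by total counts and 1 with the lane covariate.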

Other observations

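Without LPS, promoters of the pathway lists were also called higher with each agent. With (+)-JQ1 alone 14 of 16 sterol synthesis promoters, 11 of 18 LXR targets, 10 of 15 receptor partners, 6 of 12 lipid uptake genes and 4 of 10 efferocytosis genes rose, beside 22.9% of all promoter peaks. By total counts these were 3, 4, 3, 1 and 0, and with loess offsets 1, 0, 0, 0 and 0, so the calls depend on the scaling. With IL-10 alone 9, 3, 2, 0 and 1 rose, beside 8.72%, and none of the 5 lists had a rise by total counts or with loess offsets. The count of 0 for lipid uptake genes by edgeR was 4 at an unadjusted p under 0.05 and 0 by DESeq2.

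Apoe peak 7 had the largest LPS change among the members' highest promoter peaks. Of all promoter peaks outside the member loci, 3 were most like it in log2 CPM over the 18 libraries. Their nearest coding starts were those of Cdh23 (a cadherin, Pearson r = 0.97), Ctsd (the lysosomal protease cathepsin D, 0.97) and Gm6289 (0.96), at 2349, 770 and 1587 bases. The LPS changes of these peaks were -0.87, -0.89 and -1.19 on the log2 scale. For Abca1 peak 27, the most similar of the same promoter peaks were 2 near Gm12353 (0.91 each) and 1 near Tcea2 (0.91). These libraries share their groups and scaling, so the correlations are a description and were not tested.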
